A study of Mus musculus with 4 samples.

Results

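Chemokines and a related growth factor were followed across the cell types of the glomerulus, the capillary tuft where the kidney filters blood, in young and aged mice. The set was Ccl2, Ccl7, Cxcl1, Cxcl2, Cxcl10, Cxcl12, Cxcl13, Cxcl16, Cx3cl1 and Csf1, found by gene symbol, 10 of 52636 genes in the matrices. These genes were picked with measured values of the same libraries in view. Their differences between young and aged libraries are therefore given as a description, without a p-value. The other gene lists below were also chosen with earlier results of these data known, so p-values printed for their genes are descriptions too. By family 9 of the 10 are chemokines. Csf1 (macrophage colony-stimulating factor) is a cytokine growth factor and was kept because the list holds it.

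Chemokines are small secreted proteins that draw leukocytes along a concentration gradient through receptors coupled to G proteins. CC chemokines such as Ccl2 act mainly on monocytes, CXC chemokines of the Cxcl1 and Cxcl2 type act on neutrophils, and Cxcl13 acts on B cells. In the glomerulus, podocytes, endothelial cells and mesangial cells (the contractile pericyte-like cells between the capillaries) can all produce chemokines, and many of these genes are targets of NF-kB or interferon signalling.

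Single-cell RNA sequencing was done on glomeruli isolated with magnetic beads from kidneys of Mus musculus, and then dissociated with enzymes. The young group and the aged group had 2 libraries each, all from kidney labelled as whole tissue and without treatment. The labels used here name no strain or sex, give no age in numbers and do not say how many mice a library pools, so any p-value below measures only the spread between these libraries. Levels are UMIs (unique molecular identifiers, 1 per captured RNA molecule) of a gene scaled to the total UMIs of that cell type in that library, and are given as CPM. Values are listed in the order young 1, young 2, aged 1, aged 2.

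The 4 libraries held 5532 to 10621 barcodes and 18457791 to 42046542 UMIs, and 5035, 6976, 9187 and 6802 cells were kept. The second young library stood apart: 2194 of its barcodes had under 500 genes, against 179 to 405 in the others, and its median depth was 1258 UMIs per kept cell against 2715 to 3730. In that library 4422 kept cells lay in clusters that no cell type's markers defined well enough to name, against 240 to 264 in the others. Barcodes also found in another library were 0.653% to 0.784% of each library. Cells were named from marker genes, with the chemokines and the other genes studied here left out of the clustering. Mesangial cells numbered 279, 194, 703 and 550, endothelial cells 2405, 1371, 5987 and 4252, and podocytes 1745, 579, 977 and 651. Macrophages numbered 3 and 13 in the young libraries against 561 and 495 in the aged ones, so young macrophage levels are not used. Fewer cells of a type in a library and fewer recovered from the tissue cannot be told apart.

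Several of the genes are neighbours in the mouse genome (GRCm38, GENCODE vM21 gene models). Cxcl1 (ENSMUSG00000029380, chromosome 5, 90891241 to 90893115, plus strand) and Cxcl2 (ENSMUSG00000058427, chromosome 5, 90903871 to 90905938, plus) lie 10755 bases apart with no protein-coding gene between them. Ccl2 (ENSMUSG00000035385, chromosome 11, 82035571 to 82037453, plus) and Ccl7 (ENSMUSG00000035373, chromosome 11, 82045712 to 82047525, plus) lie 8258 bases apart, likewise with none between. Cxcl10 (ENSMUSG00000034855, chromosome 5, 92346638 to 92348889, minus) and Cxcl13 (ENSMUSG00000023078, chromosome 5, 95956951 to 95961068, plus) share a chromosome with the first pair. The others are Cxcl12 (ENSMUSG00000061353, chromosome 6, 117168535 to 117181367, plus), Cxcl16 (ENSMUSG00000018920, chromosome 11, 70453983 to 70459984, minus), Cx3cl1 (ENSMUSG00000031778, chromosome 8, 94772009 to 94782427, plus) and Csf1 (ENSMUSG00000014599, chromosome 3, 107741048 to 107760469, minus). Cxcl10 lies within Art3, Cxcl16 overlaps Zmynd15 and Ccl2 overlaps Gm17268, each on the opposite strand. Whether counting used strand is not given in the sources used here.

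The promoters are shown because the genes differ in one known control element, the NF-kB motif. RefSeq promoters (GRCm38.p6, 27025 genes) held 7 of the 10 genes; Ccl2, Ccl7 and Cxcl16 had no entry. The 250 bases before the start are printed 5′ to 3′ on the gene's strand, with matches to the NF-kB motif on either strand in capitals. The first 4 hold a match and the last holds none.
Cxcl1 (chr5:90890995-90891244, plus): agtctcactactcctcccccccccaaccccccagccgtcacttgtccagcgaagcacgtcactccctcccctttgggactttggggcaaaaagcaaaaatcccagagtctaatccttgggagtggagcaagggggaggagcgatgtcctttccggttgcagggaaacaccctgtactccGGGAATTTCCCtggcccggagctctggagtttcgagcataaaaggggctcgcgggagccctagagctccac
Cxcl2 (chr5:90903649-90903898, plus): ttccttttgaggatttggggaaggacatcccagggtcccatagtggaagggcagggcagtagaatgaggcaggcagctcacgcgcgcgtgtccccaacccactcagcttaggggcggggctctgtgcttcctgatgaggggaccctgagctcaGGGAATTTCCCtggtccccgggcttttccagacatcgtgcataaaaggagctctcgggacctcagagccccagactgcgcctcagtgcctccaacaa
Cxcl10 (chr5:92348890-92349139, minus): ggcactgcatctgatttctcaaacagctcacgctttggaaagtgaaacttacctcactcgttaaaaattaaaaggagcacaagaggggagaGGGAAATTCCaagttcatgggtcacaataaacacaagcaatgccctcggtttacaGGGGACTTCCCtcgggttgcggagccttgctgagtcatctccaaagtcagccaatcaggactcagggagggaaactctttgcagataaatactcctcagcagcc
Csf1 (chr3:107760470-107760719, minus): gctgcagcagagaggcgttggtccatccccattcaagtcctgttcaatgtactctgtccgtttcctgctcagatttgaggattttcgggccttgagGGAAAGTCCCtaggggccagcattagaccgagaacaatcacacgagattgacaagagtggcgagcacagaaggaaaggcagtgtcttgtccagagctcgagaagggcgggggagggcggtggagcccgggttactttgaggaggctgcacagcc
Cxcl13 (chr5:95956689-95956938, plus): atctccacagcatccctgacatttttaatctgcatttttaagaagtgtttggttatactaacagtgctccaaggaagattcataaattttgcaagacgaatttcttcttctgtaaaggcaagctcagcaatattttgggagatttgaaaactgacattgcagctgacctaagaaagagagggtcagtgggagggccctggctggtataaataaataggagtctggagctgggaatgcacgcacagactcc

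Cxcl1 and Cxcl2 each held the same run of capitals, 2 overlapping matches, ending 61 bases before the start in Cxcl1 and 87 bases before it in Cxcl2. Cxcl10 held 3 matches, of which 2 overlap, and Csf1 held 1. The windows of Cxcl12, Cxcl13 and Cx3cl1 held none. Over all 27025 promoters of the table, 8.18% held at least 1 match within 300 bases (250 before and 50 after the start). Cxcl10 also held 1 AP-1 match (TGANTCA, in 7.93% of promoters) and 1 match to the interferon-stimulated response element (in 3.49%). TATAAA, found in 14.2% of promoters, was present in Cxcl13 and Cx3cl1. A match describes letters only and is no evidence of binding.

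Each gene had its own distribution over cell types. Mesangial cells held most of the Cxcl1 and Cxcl13 UMIs in named cells and the most Ccl2. Podocytes held most Cxcl12, endothelial cells most Cx3cl1 and Csf1, and aged macrophages most Ccl7. Cxcl10 was shared between endothelial and mesangial cells, and Cxcl2 and Cxcl16 between resident and myeloid cells.

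**Figure D1:**
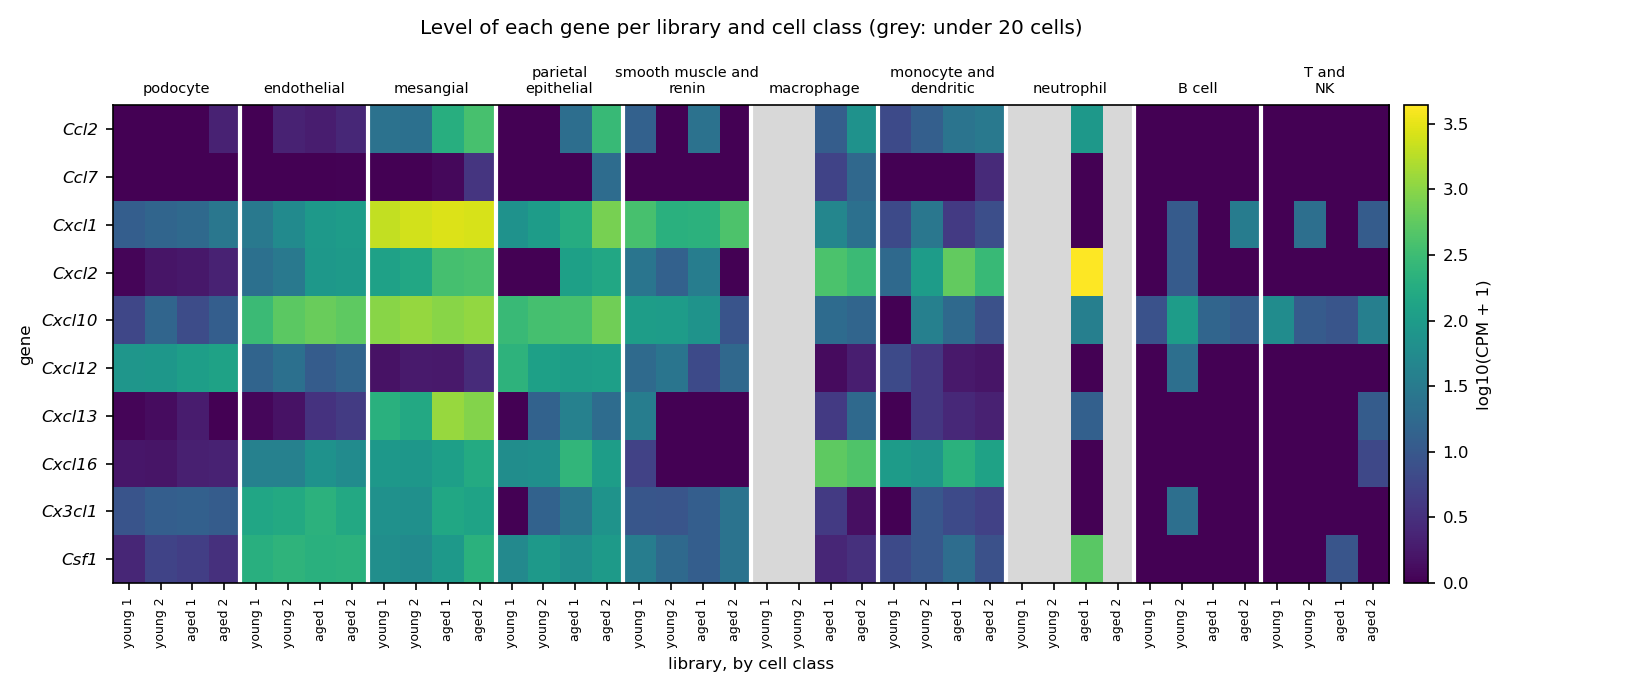
Level of the 10 genes (rows) as log10(CPM + 1) in each library (columns) of 10 cell classes, with grey where a library held under 20 cells of the class. Cxcl1 and Cxcl10 are bright in all 4 mesangial columns, Cxcl12 in podocytes and parietal epithelial cells, and Cxcl16 in the 2 aged macrophage columns.

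**Figure D2:**
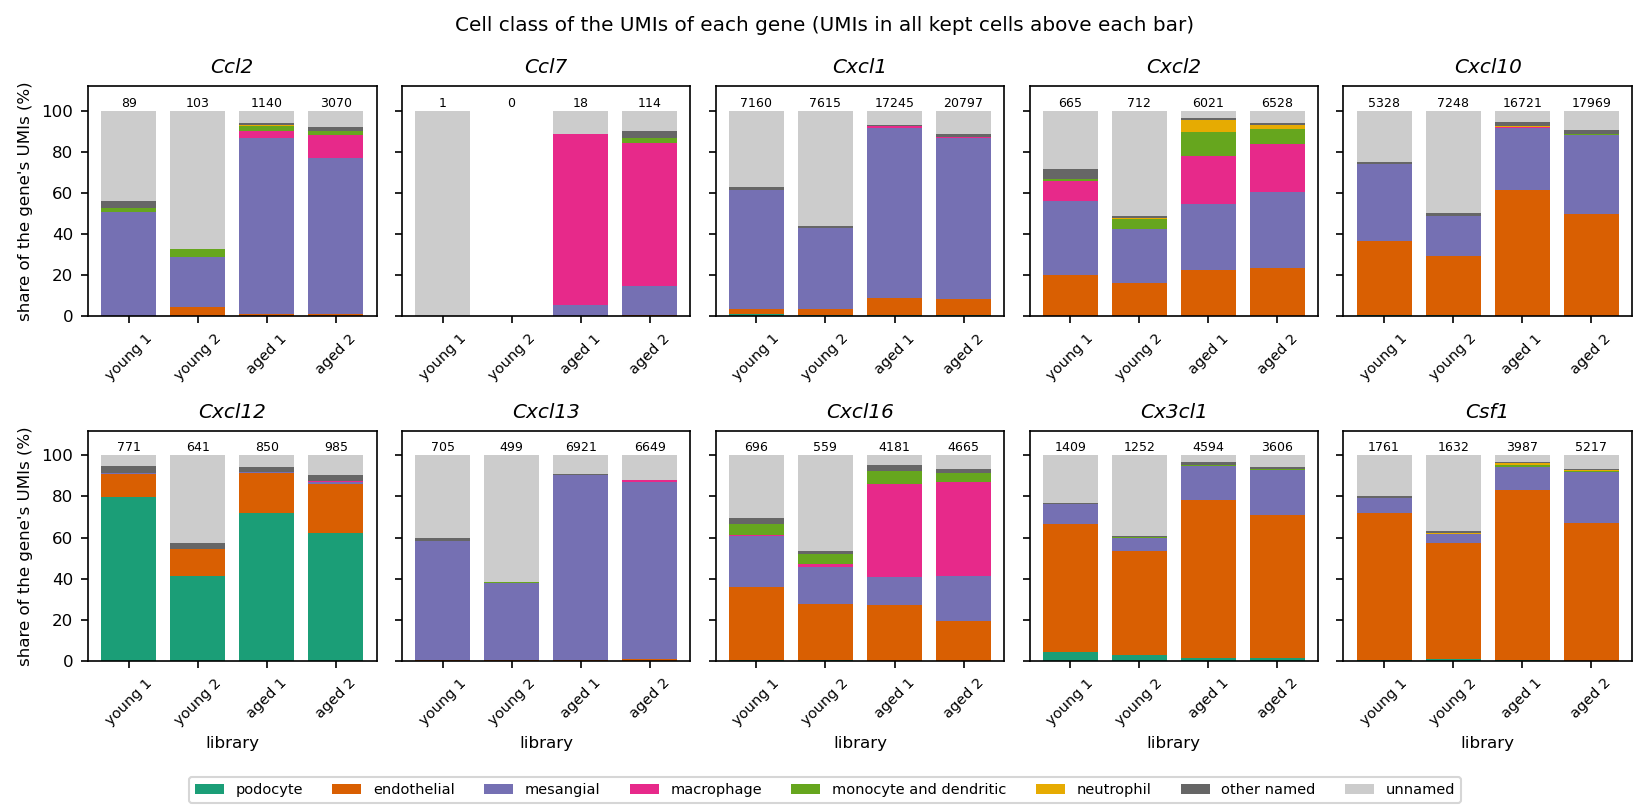
Share of each gene's UMIs (percent, vertical axis) that came from each cell class in each library (horizontal axis), with the gene's UMIs over all kept cells above each bar. The grey part, cells without a name, is largest in the second young library, and the macrophage part of Cxcl16 is 0.7%, 1.3%, 45.1% and 45.7%.

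Ccl2, the main attractant of Ccr2-positive monocytes, was a mesangial transcript in these libraries and higher in both aged ones. Its mesangial UMIs were 45, 25, 974 and 2330, and its mesangial level was 22.3, 20.7, 190 and 379 CPM. The aged libraries did not overlap the young ones but differed from each other, the second lying well above the first. The edgeR log2 fold change was 3.82 (SE 0.31, n = 2 per group). Macrophages, a well known source of Ccl2, had less of it than mesangial cells of the same library, with 10.7 and 71.1 CPM in the aged libraries. Endothelial Ccl2 was 0 to 1.55 CPM.

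Few cells carried most of the Ccl2. In the aged libraries the top 10% of mesangial cells held 74.5% and 57.0% of the mesangial Ccl2 UMIs, and single cells reached 87 and 142 UMIs. Among 206 and 308 aged mesangial cells with Ccl2, 198 and 300 also had Cxcl1, 143 and 230 had Cxcl13, and 138 and 215 had Cxcl2. For comparison, most of all aged mesangial cells had Cxcl1 and most had Cxcl13, and 44.8% and 50.5% had Cxcl2. The matching Cxcl13 shares are given below, before thinning. For Cxcl1 the shares given below are only from cells thinned to the same number of UMIs. Those Cxcl1 shares cannot be set beside the counts above, which are from cells that were not thinned. Deeper cells show more of any gene, and the counts above and the Cxcl2 shares were not adjusted for depth.

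Ccl7, a close relative of Ccl2 that also acts on monocytes, was nearly absent from the glomerular cells themselves. All kept cells together held 1, 0, 18 and 114 UMIs. Macrophages held 83.3% and 69.3% of those in the aged libraries, from 7 and 22 cells, and 1 cell of the second aged library held 21 UMIs. Mesangial cells had 0, 0, 1 and 16 UMIs. Ccl7 passed the filter on low counts in no cell class.

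Cxcl1, an attractant of neutrophils through Cxcr2, was abundant in mesangial cells of every library at 2053, 2497, 2779 and 2651 CPM. The difference with age there was small, with a log2 fold change of 0.37 (SE 0.17). Endothelial cells had far less, 28.3, 54.3, 90.2 and 101 CPM, with aged above young and a log2 fold change of 1.38 (SE 0.19). Podocytes had 11.1, 14.5, 16.6 and 26.5 CPM, also higher in both aged libraries, with a log2 fold change of 0.85 (SE 0.22).

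The level of mesangial marker genes in the same cells is set beside these low values. Endothelial Cxcl1 was 1.38%, 2.17%, 3.25% and 3.80% of the mesangial level of the same library. The 9 mesangial-specific marker genes summed to 0.412%, 0.641%, 1.02% and 1.21% of their mesangial level in endothelial cells. Both rows of values were higher in the aged libraries, and the Cxcl1 row was above the marker row in all 4. Podocyte Cxcl1 was 0.540% to 1.00% of the mesangial level, against 0.264% to 0.308% for the markers.

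Cxcl2, the neighbour of Cxcl1 and a ligand of the same receptor, was higher in both aged libraries of mesangial and endothelial cells. In mesangial cells it was 119, 154, 373 and 392 CPM, without overlap, and the log2 fold change was 1.62 (SE 0.16). In endothelial cells it was 21.0, 28.8, 85.0 and 95.5 CPM, a log2 fold change of 2.01 (SE 0.16). The endothelial level was 17.7% to 24.4% of the mesangial one, well above that of the mesangial markers.

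Myeloid cells had Cxcl2 too. The 55 neutrophils of the first aged library had 4368 CPM, and aged macrophages had 406 and 306 CPM. Monocytes and dendritic cells had 16.6, 103, 574 and 279 CPM. Levels of macrophage, neutrophil and monocyte markers in mesangial and endothelial cells are given below.

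Cxcl10, an interferon-induced ligand of Cxcr3 on T cells, was high in mesangial cells at 989, 1163, 987 and 1117 CPM, and the age groups overlapped (log2 fold change 0.08, SE 0.16). In endothelial cells it was 302, 525, 640 and 553 CPM, a log2 fold change of 0.67 (SE 0.20) that edgeR did not call over all genes and DESeq2 did. Endothelial Cxcl10 was uneven: the top 10% of cells held 88.6%, 79.1%, 80.3% and 80.1% of its UMIs. Podocytes had 4.96 to 14.5 CPM. Art3, the gene on the opposite strand, is itself a mesangial gene (414, 445, 285 and 277 CPM) and had 5.47 to 8.85 CPM in endothelial cells, so endothelial Cxcl10 was far above it.

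Cxcl12, a homeostatic chemokine that holds leukocytes and progenitors through Cxcr4, was the podocyte gene of the set. Its podocyte level was 80.0, 83.1, 109.9 and 125 CPM, with both aged libraries higher and a log2 fold change of 0.58 (SE 0.14). Podocytes supplied 79.5%, 41.2%, 71.8% and 62.1% of the Cxcl12 UMIs. Parietal epithelial cells, which line the capsule around the glomerulus, had 222, 115, 104 and 113 CPM, from 22, 9, 16 and 25 UMIs in 25 to 39 cells.

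Within the endothelium Cxcl12 was 14.1, 21.2, 10.4 and 14.5 CPM overall and lay mostly in small clusters. The cluster led by Tspan8, Thbs2 and Fbln2 had 102, 104, 72.0 and 79.8 CPM, and the one led by Esm1 and Igfbp3 had 29.3, 49.5, 33.8 and 57.3 CPM. In the first both aged libraries were lower, and in the second the groups overlapped. Mesangial Cxcl12 was 0.496 to 1.79 CPM.

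Ackr3, the scavenging receptor that removes Cxcl12, had the opposite direction in podocytes. Its level there was 87.0, 84.3, 34.8 and 41.0 CPM, and it fell by 1.13 on the log2 scale (SE 0.15, adjusted p = 1.9e-07 by edgeR's quasi-likelihood test with Benjamini-Hochberg adjustment). Ackr3 remained called in 12 of 12 alternative analyses. Parietal epithelial Ackr3 was 172, 217, 163 and 254 CPM, with overlapping groups.

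Cxcl13, which draws Cxcr5-positive B cells and is known mainly from lymphoid follicles, was nearly restricted to mesangial cells among the named classes. Mesangial UMIs were 411, 187, 6208 and 5721, or 204, 155, 1209 and 930 CPM, with a log2 fold change of 2.68 (SE 0.20). Mesangial cells supplied 58.3%, 37.5%, 89.7% and 86.0% of the gene's UMIs. Most of the rest came from cells without a name, with shares of 40.3%, 61.5%, 9.3% and 11.8%.

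Mesangial cells of the 2 ages lay in different clusters, so the levels are also given per cluster. The cluster led by Gucy1a3, Steap4, Rgs4 and Sfrp2 held 259, 178, 37 and 15 mesangial cells, and the cluster led by Cxcl13, Rab3c, Ccl2 and Cpne4 held 20, 16, 666 and 535. In the first, Cxcl13 was 212, 161, 1120 and 638 CPM, and in the second 42.9, 47.8, 1212 and 934 CPM. Aged libraries were higher within each cluster, although the young values of the second rest on 4 and 3 UMIs. Ccl2 in the first cluster was 16.7, 21.9, 28.2 and 109 CPM, from 4 and 8 UMIs in the aged libraries, and in the second 139, 0, 194 and 382 CPM.

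Cxcl13 in other resident cells was no higher than mesangial markers are there. In endothelial cells it was 0.158, 0.505, 2.43 and 3.29 CPM, or 0.0775% to 0.354% of the mesangial level, below the mesangial markers in each library. The endothelial log2 fold change was 3.35 (SE 0.61), and the part of mesangial RNA in it was not tested. Podocytes had 0 to 0.901 CPM.

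Cxcl16 and Cx3cl1 are the chemokines made as transmembrane proteins, which hold cells to a surface until they are cleaved. Cxcl16, the ligand of Cxcr6, had its highest well-sampled levels in aged macrophages at 547 and 431 CPM. In mesangial cells it was 86.4, 84.7, 114 and 166 CPM (log2 fold change 0.82, SE 0.18), and in endothelial cells 38.6, 38.4, 70.1 and 55.5 CPM (log2 fold change 0.83, SE 0.15). Aged libraries were above young ones in both. Monocytes and dendritic cells had 97.1, 82.1, 208 and 124 CPM.

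Cx3cl1 (fractalkine), the ligand of Cx3cr1, was mainly endothelial at 139, 160, 220 and 156 CPM, and there the groups overlapped (log2 fold change 0.46, SE 0.16). Mesangial cells had 68.0, 65.6, 149 and 129 CPM, without overlap, and a log2 fold change of 1.17 (SE 0.16). The endothelial level was thus 205%, 244%, 148% and 120% of the mesangial one. Among endothelial clusters the highest Cx3cl1 was in that led by Dlk1, at 304, 352, 556 and 339 CPM.

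Csf1, the survival factor of macrophages, was 199, 233, 205 and 217 CPM in endothelial cells, with overlapping groups (log2 fold change 0.09, SE 0.14). Mesangial Csf1 was 61.5, 53.9, 88.2 and 211 CPM, a log2 fold change of 1.47 (SE 0.31) in which the second aged library stood well above the first. The endothelial level was 323%, 433%, 233% and 103% of the mesangial level. Endothelial Csf1 was spread over more cells than endothelial Cxcl10, with 46.2% to 51.5% of UMIs in the top 10% of cells. In mesangial cells the top 10% held 48.0% to 66.2% of the Csf1 UMIs.

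**Figure D3:**
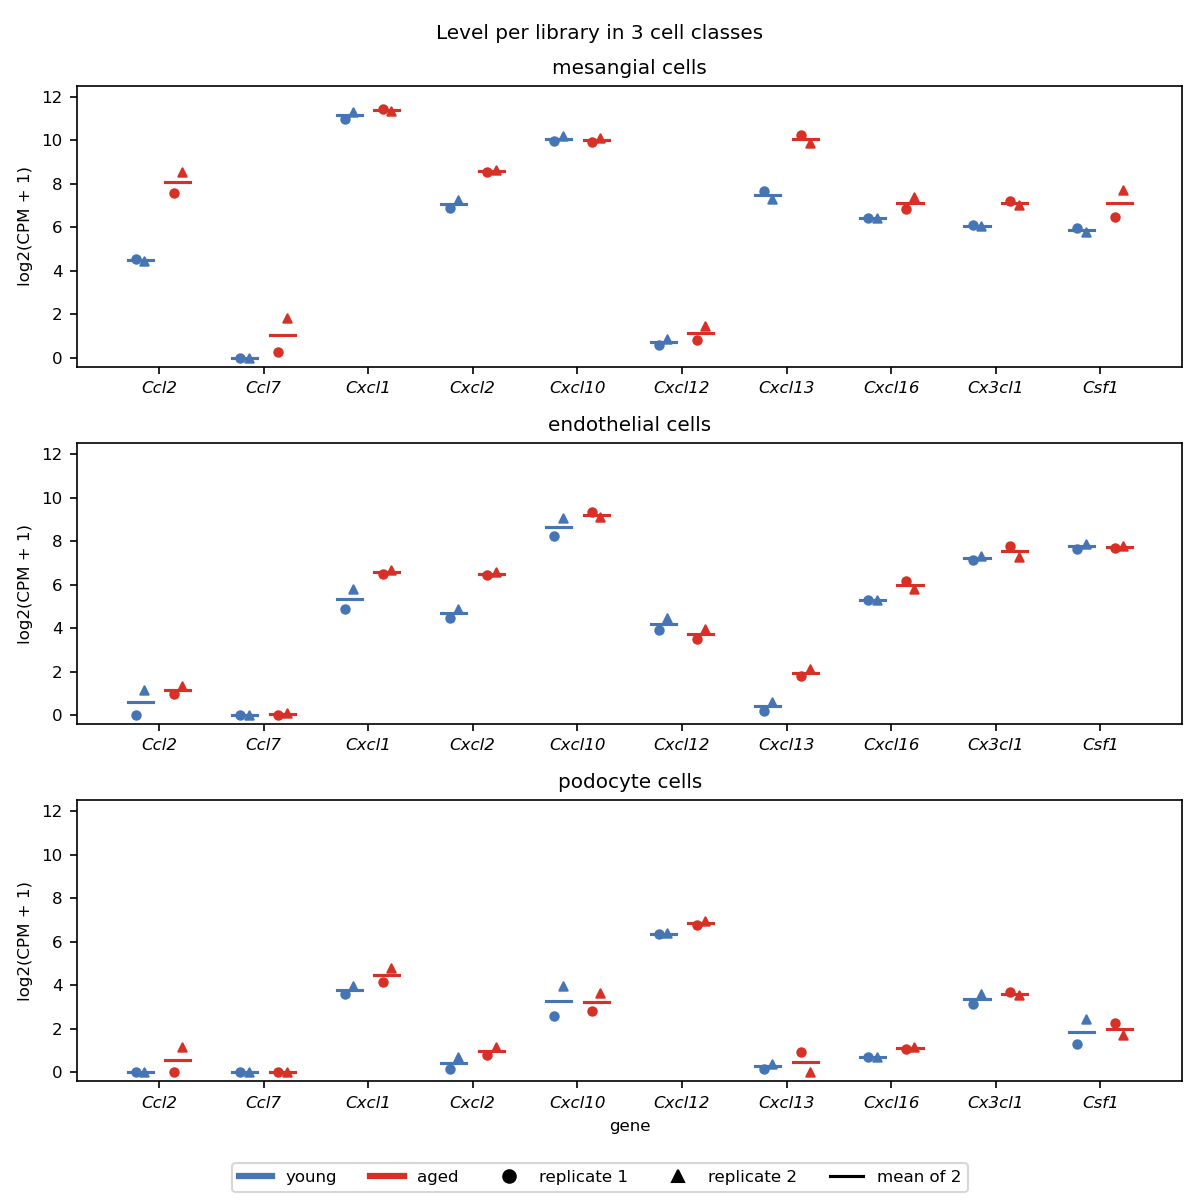
Level of each gene as log2(CPM + 1) in mesangial, endothelial and podocyte cells, with a circle for replicate 1, a triangle for replicate 2, and a line at the mean of the 2 libraries of a group. The young and aged marks of Ccl2, Cxcl2 and Cxcl13 lie apart in mesangial cells, while those of Cxcl1 and Cxcl10 nearly coincide.

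The number of genes called in each cell type sets the scale for these differences. A call is an adjusted p under 0.05 in edgeR's quasi-likelihood test over all genes that passed a filter on low counts. In mesangial cells 8 of the 10 genes passed the filter and 6 were called higher (Ccl2, Cxcl2, Cxcl13, Cxcl16, Cx3cl1 and Csf1), beside 4.43% of all 11012 genes tested called higher and 2.47% called lower. In endothelial cells 9 passed and 4 were called higher (Cxcl1, Cxcl2, Cxcl13 and Cxcl16), beside 3.76% higher and 1.97% lower of 13132. In podocytes 5 passed and 2 were called higher (Cxcl1 and Cxcl12), beside 4.37% higher and 2.34% lower of 10855. DESeq2 called 5, 5 and 1 of the genes in these 3 classes.

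Several of these calls were lost when a library was left out, a fit that leaves 1 library in its group. In endothelial and mesangial cells the calls over all genes also fell without a young library, so this loss is not particular to these genes. The 4 endothelial calls were also lost without the filter on low counts, where 0 genes were called in that class. Over the 12 alternatives mesangial Csf1 was called in 7, and so was podocyte Cxcl1. The 4 endothelial calls did not hold without the first or without the second young library, where Cxcl1 had log2 fold changes of 1.00 and 1.83 and Cxcl2 had 1.83 and 2.18. Mesangial Cxcl16, Cx3cl1 and Csf1 were not called without either young library, at 0.85 and 0.81, 1.21 and 1.15, and 1.58 and 1.38. Podocyte Cxcl1 was not called without the first young library (0.65) or the second aged one (0.45), and podocyte Cxcl12 without the first (0.69) or the second (0.47) aged one.

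Smaller cell types gave less. In parietal epithelial cells 6 passed and edgeR called 1 higher (Cxcl2) where DESeq2 called 0, beside 0.871% higher and 1.03% lower of 2526 genes. In smooth muscle and renin cells 2 passed and edgeR called 0, as did DESeq2, with 1 at an unadjusted p under 0.05 (Cxcl10), beside 1.23% of 3403 genes called higher and 0.382% lower. Cxcl10 was lower there in the aged libraries (log2 fold change -1.13, SE 0.48), from 50 UMIs in the young group and 14 in the aged group. Of the 3403 genes, 391 had an unadjusted p under 0.05. None of the 10 genes was called lower in any of the 5 classes. Since the genes were selected on these contrasts, nothing is read from the counts.

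**Figure D4:**
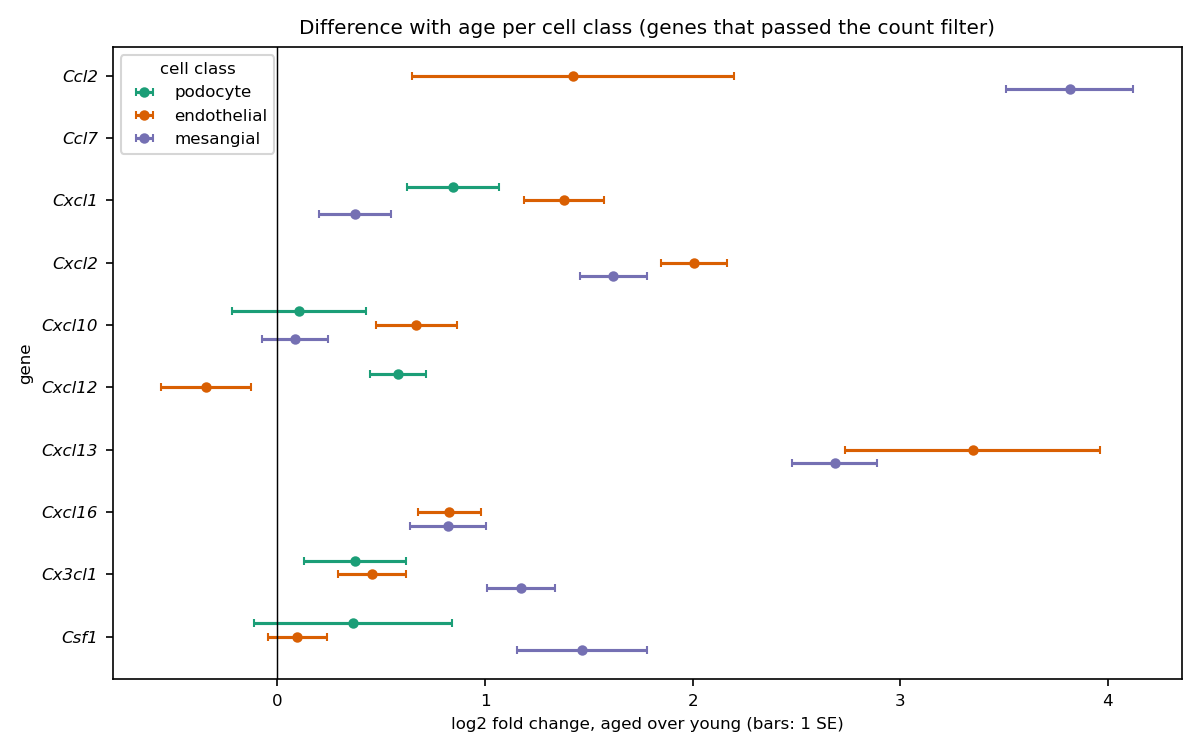
Log2 fold change of aged over young libraries (horizontal axis, bars of 1 SE) for each gene that passed the count filter in podocytes, endothelial cells and mesangial cells. Mesangial Ccl2 lies farthest right, followed by endothelial Cxcl13, whose level is at most 3.29 CPM.

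The share of cells with at least 1 UMI was compared after each cell was thinned to 1000 UMIs, which removes differences in depth. In mesangial cells Cxcl13 was found in 15.1%, 11.1%, 36.1% and 32.6% of cells, and Ccl2 in 2.16%, 1.06%, 11.4% and 20.4%. Cxcl2 was found in 4.68%, 12.2%, 19.1% and 22.4%, and Cxcl1 in 65.5%, 72.5%, 73.7% and 74.1%. The differences in CPM came with more cells holding a UMI for Cxcl13, Ccl2 and Cxcl2, and with nearly the same share for Cxcl1. At a fixed depth such a share rises with the level, and it levels off where most cells hold a UMI, as for Cxcl1. These shares therefore cannot tell more cells with the RNA from more RNA per cell.

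The same shares in podocytes are set beside these, at median depths of 4200 to 7682 UMIs against 3761.5 to 7361 in mesangial cells. Thinned alike, podocytes had Cxcl13 in 0 of 1742, 562, 976 and 648 cells, which allows up to 0.172%, 0.534%, 0.307% and 0.463% of cells with a UMI at that depth (3 cells of each total), not a limit on cells that express the gene. Before thinning podocytes held 1, 1, 5 and 0 Cxcl13 UMIs. Podocytes had Cxcl1 in 0.918%, 1.25%, 1.84% and 2.01% of cells. Before thinning, mesangial Cxcl13 shares were 30.5%, 25.3%, 58.9% and 63.8%, and mesangial Ccl2 shares were 6.81%, 4.64%, 29.3% and 56.0%. Of 14 pairs of gene and cell type with a thinned share of at least 5% in some library, aged libraries lay above young ones in 10. The genes were selected on these contrasts and no share over all genes is given for this measure, so nothing is read from the count.

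The endothelial cluster led by Sele, Selp and Il6, genes of activated endothelium, carried more of several chemokines. Cxcl1 there was 54.9, 58.4, 127 and 146 CPM, Cxcl2 was 81.3, 61.6, 139 and 166 CPM, and Cxcl10 was 805, 1264, 1032 and 1005 CPM. Cxcl1 and Cxcl2 were higher in both aged libraries within this cluster too, and Cxcl10 was not. The cluster made up 12.7%, 13.9%, 35.4% and 24.7% of endothelial cells. The part of this share in the differences over all endothelial cells was not tested. The cluster was defined on these cells, so its levels are a description.

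In parietal epithelial cells of the second aged library, single cells held most of the Cxcl1 and Cxcl2 UMIs and much of Ccl2. Cxcl1 was 70.7, 102, 176 and 788 CPM, but 153 of 174 UMIs of the last library came from 1 cell, and its level was 99.9 CPM without that cell. Ccl2 was 0, 0, 19.5 and 285 CPM, with 40 of 63 UMIs of the last library in 1 cell and 109 CPM without it. Cxcl2 was 0 in both young libraries and 117 and 149 CPM in the aged ones, at least 8.05-fold higher against 3 UMIs over the young group. Of its 33 UMIs in the second aged library 31 were in 1 cell, and without that cell the level was 9.52 CPM. Other genes were more evenly spread: Cxcl16 in the first aged library had 38 UMIs in 21 cells, and Cxcl10 in the second had 158 UMIs in 17 cells, with 605 CPM without the highest cell.

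The receptors show which cells could read these signals, with no test in the immune classes. Ccr2, the receptor of Ccl2 and Ccl7, was in monocytes and dendritic cells at 705, 706, 325 and 126 CPM, with both aged libraries lower. Cxcr2, the receptor of Cxcl1 and Cxcl2, was in the 55 neutrophils of the first aged library at 742 CPM. Cxcr3, the receptor of Cxcl10, was in T and NK cells at 14.3, 50.5, 80.9 and 110 CPM, from 1, 5, 10 and 21 UMIs.

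Cxcr5, the receptor of Cxcl13, was in B cells at 101, 81.2, 142 and 130 CPM. Cxcr6, the receptor of Cxcl16, was in T and NK cells at 14.3, 20.2, 129.5 and 251 CPM, from 1, 2, 16 and 48 UMIs. Aged libraries were higher for both, with Cxcr5 resting on 14, 8, 20 and 12 UMIs. Cx3cr1 was in monocytes and dendritic cells at 161, 255, 69.8 and 138 CPM, and Csf1r was there at 447, 451, 297 and 466 CPM and in aged macrophages at 403 and 524 CPM.

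**Figure D5:**
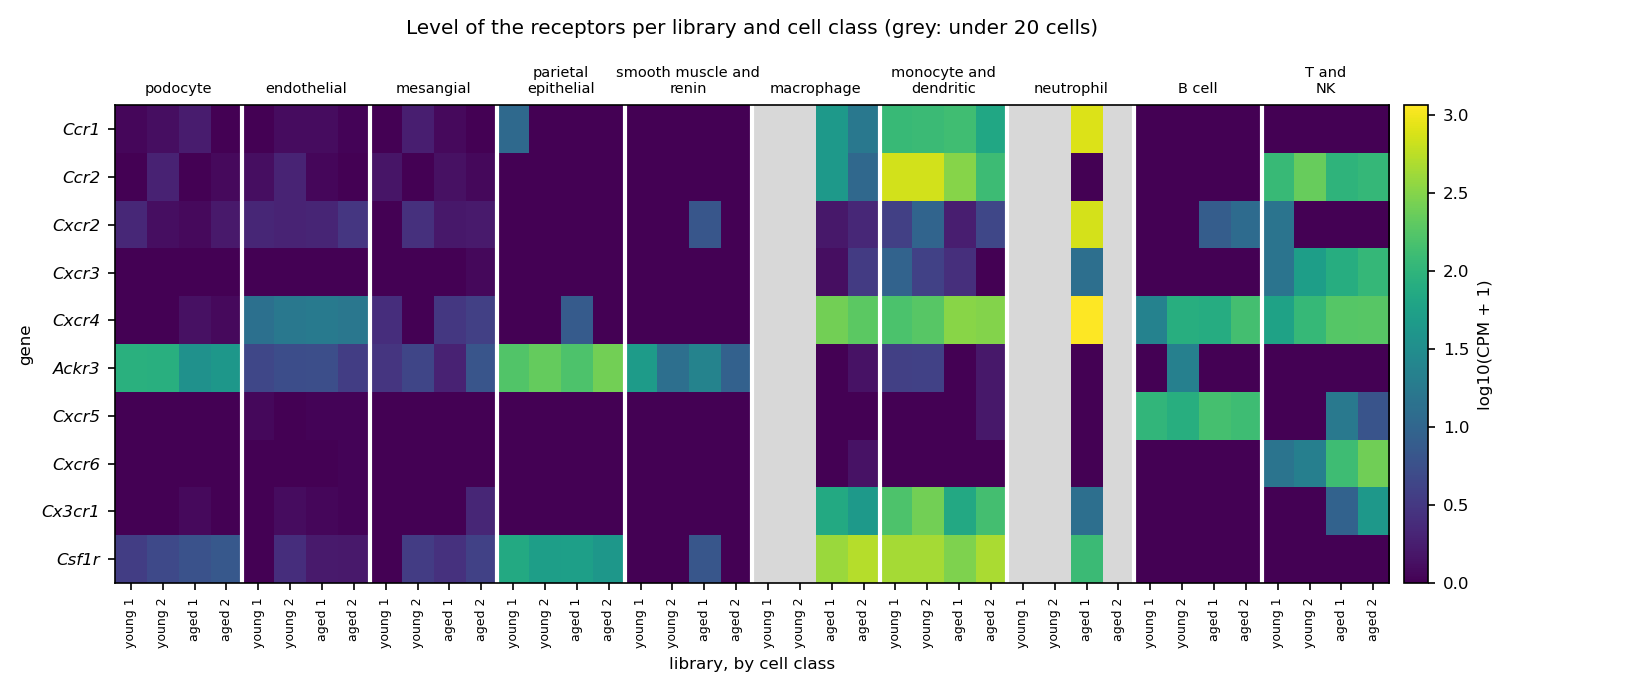
Level of 10 receptors (rows) as log10(CPM + 1) in each library of 10 cell classes, with grey under 20 cells. Ccr2 and Csf1r are bright in monocytes and dendritic cells, Cxcr5 in B cells, and Ackr3 in podocytes and parietal epithelial cells.

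In resident cells few receptors were measured well enough to test, and 3 of them changed. Of 23 chemokine receptors, 2 were tested in podocytes, 6 in endothelial cells and 2 in mesangial cells, and the called ones were Ackr3 in podocytes (above) and 2 in endothelial cells. Ackr2, a decoy for CC chemokines, was 25.4, 23.2, 44.4 and 34.8 CPM in endothelial cells and rose by 0.82 on the log2 scale (SE 0.17, adjusted p = 0.00626, edgeR). Ccrl2, which binds chemerin, was 119, 121, 67.8 and 76.8 CPM and fell by 0.61 (SE 0.14, adjusted p = 0.0115, edgeR). Without the first young library the adjusted p of the 15 endothelial list genes named here and below was 0.285 to 0.399, and without the second it was 0.102 to 0.348, so none of those calls held.

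Genes of the NF-kB pathway were called higher, and none lower, in the aged libraries of the 3 main resident classes. This list and those below were chosen with earlier results of these data known, so their counts are a description. Beside them, 4.37% of all genes tested were called higher and 2.34% lower in podocytes. The shares were 4.43% and 2.47% in mesangial cells, and 3.76% and 1.97% in endothelial cells. In podocytes 8 of 14 NF-kB genes tested were called higher and 0 lower, and DESeq2 called 4. Their median log2 fold change in podocytes was 0.57 against 0.00 over all genes. Tnfaip3, a feedback inhibitor, was 29.6, 56.3, 207 and 229 CPM there and rose by 2.48 (SE 0.17, adjusted p = 3.7e-15, edgeR). Nfkbia, the inhibitor that holds NF-kB in the cytoplasm, rose by 1.32 (SE 0.15), and Birc3, an NF-kB target that limits cell death, by 1.74 (SE 0.20).

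In mesangial cells 4 of 15 NF-kB genes were called higher and 0 lower, with a median of 0.50 against -0.02. Nfkb1, a subunit of the factor, was 52.1, 49.0, 156 and 153 CPM and rose by 1.72 (SE 0.16, adjusted p = 7.8e-05, edgeR), a call kept in 12 of 12 alternatives. Of the 15 mesangial list genes named here and below, only Nfkb1 and Gbp2 were called without the first young library and only Nfkb1 without the second. Tnip1, a partner of Tnfaip3, rose by 1.65 (SE 0.24) and Tnfaip3 by 1.06 (SE 0.16). In endothelial cells 4 of 15 were called higher and 0 lower, with a median of 0.44 against -0.01. Tnip1 was 29.4, 34.3, 84.9 and 75.8 CPM and rose by 1.47 (SE 0.15), Birc3 by 0.87 (SE 0.15) and Bcl3, a nuclear co-regulator, by 0.64 (SE 0.14).

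Interferon response genes had calls in both directions. Of 19 tested in mesangial cells 3 were called higher and 1 lower, with a median of 0.12 against -0.02. Gbp2, a GTPase of cell-autonomous defence, was 30.8, 21.6, 66.6 and 73.8 CPM and rose by 1.50 (SE 0.20), Gbp5 rose by 1.38 (SE 0.23), and Bst2, the antiviral tetherin, by 0.95 (SE 0.20). Irf1, a transcription factor of the pathway, was 1710, 1897, 1053 and 805 CPM and fell by 0.84 (SE 0.18).

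In endothelial cells 2 of 19 interferon genes were called higher and 0 lower, namely Gbp2 by 1.39 (SE 0.15) and Gbp5 by 0.88 (SE 0.20), with a median of 0.27 against -0.01. In podocytes 4 of 15 were called higher, among them Gbp2 by 1.03 (SE 0.22). The podocyte median was 0.38 against 0.00, and DESeq2 called 0 of the 15. In parietal epithelial cells 3 were tested, and Irf1 fell by 2.24 (SE 0.30).

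Cytokines and receptors that act upstream of chemokines were called in all 3 classes. Il1r1, the interleukin-1 receptor, was 32.8, 36.5, 81.8 and 59.5 CPM in mesangial cells and rose by 1.16 (SE 0.21). Il6 rose there by 0.84 (SE 0.15). Tlr2, a sensor of bacterial lipoproteins, had 0 UMIs in both young mesangial sums and 44 in the aged ones, at least 4.19-fold higher against 3 UMIs over the young group. Tlr2 thus passed the filter through the aged libraries alone. Its call was lost with DESeq2, with cells named one by one and with mixed cells kept. The log2 fold change ran from 1.48 to 7.13 over the 10 alternatives that tested it. Of 16 tested in mesangial cells 4 were called higher and 0 lower (median 0.31), and DESeq2 called 2.

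Of 16 tested in endothelial cells 3 were called higher and 0 lower (median 0.23): Il6 by 2.61 (SE 0.16), the oncostatin M receptor Osmr by 1.21 (SE 0.14) and the tumour necrosis factor receptor Tnfrsf1b by 2.22 (SE 0.53). In podocytes 2 of 9 were called higher and 0 lower (median 0.20; 1 called by DESeq2), Osmr, at 0.131, 1.26, 5.76 and 4.29 CPM, and Myd88. The podocyte Osmr call was lost without the first young library, with a log2 fold change between 0.91 and 5.09 over the alternatives.

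The smaller lists held few calls. Of the colony-stimulating factor genes, endothelial Csf2rb and Csf2ra, which form a receptor for granulocyte-macrophage colony-stimulating factor, rose by 2.37 (SE 0.52) and 1.05 (SE 0.29), both under 8 CPM in every library and neither called by DESeq2. Of proteases that cut chemokines, Dpp4 fell by 2.99 in endothelial cells (SE 0.30), Mmp14 fell by 3.30 in podocytes (SE 0.60) and Cpd fell by 0.83 in mesangial cells (SE 0.15), all on the log2 scale. Of 25 other chemokines, 7 were tested in endothelial cells and edgeR called 0, with 3 at an unadjusted p under 0.05 and 0 called by DESeq2; 5 were tested in mesangial cells and 1 was called. That was Ccl17, a Ccr4 ligand, at 6.45, 4.15, 19.7 and 11.7 CPM, which rose by 1.60 (SE 0.41, adjusted p = 0.0381, edgeR) and was not called by DESeq2.

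Genes induced by tissue dissociation, which share regulators with chemokines, had calls in opposite directions in different cell types. In mesangial cells 0 of 17 were called higher and 5 lower (median -0.08), among them Egr1 by -1.22 (SE 0.20), Btg2 by -1.19 (SE 0.21) and Jun by -0.97 (SE 0.22), on the log2 scale. In podocytes 5 of 17 were called higher and 1 lower, and DESeq2 called 3. The heat-shock gene Hspa1a was at 1.07 there (SE 0.19) but was not called by DESeq2, with cells named one by one or without the second aged library (0.43), and the phosphatase gene Dusp1 fell by 0.81 (SE 0.14), a call lost without the first aged library. In endothelial cells edgeR called 2 of 17 higher and 0 lower, Dusp1 at 1.18 (SE 0.18) and Ier3 at 0.92 (SE 0.18), with 9 at an unadjusted p under 0.05, and DESeq2 called 7. In parietal epithelial cells 0 of 16 were called higher and 8 lower (median -1.10), Jun by -1.74 (SE 0.18). Their part in the chemokine differences was not tested.

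Markers of other cell types stand beside the mesangial and endothelial results. Of 11 macrophage markers 4, 5, 8 and 8 were detected in mesangial cells, with summed levels of 1753, 1523, 2405 and 2401 CPM, mostly Apoe (1291, 1026, 1931 and 2052 CPM). The defining C1qa was at 0, 0, 1.75 and 5.53 CPM, and Fcgr1 and Cd163 were at 0 in all 4. In endothelial cells the same list summed to 85.2, 75.2, 132 and 135 CPM. Of 12 parietal markers, the mesangial sum was 518, 565, 2395 and 1377 CPM, nearly all Akap12 and Cp, with Pax8, Pax2, Krt8 and Dkk3 at 0.

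Neutrophil and monocyte markers are set beside the Cxcl2 values, since aged neutrophils had the highest Cxcl2 level in CPM, though not the most UMIs. Of 8 neutrophil markers the mesangial sum was 1.99, 0.83, 73.4 and 1.95 CPM, high in the first aged library through S100a8 and S100a9, at 21.8 and 35.3 CPM there, with Ly6g at 0 in all 4. Without that library the mesangial log2 fold change of Cxcl2 was 1.64. In endothelial cells the sum was 16.9, 27.0, 66.5 and 25.9 CPM, mostly Hdc, and without the first aged library the endothelial Cxcl2 value was 2.09. Of 10 monocyte and dendritic markers the sum was 2132, 1813, 2500.0 and 2301 CPM in mesangial cells and 1278, 1318, 1433 and 1183 CPM in endothelial cells, mostly Cst3, with Cd209a at 0 in both classes.

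Cells close to a class but not named as it were another difference between libraries. Unnamed cells closest to podocytes made up 0.655%, 32.35%, 0.229% and 0.22% of kept cells. With cells named one by one, the second young library had 1624 podocytes, against 579 here. The podocyte log2 fold change of Cxcl1 was then -0.081, while that of Cxcl12 was positive in 12 of 12 alternatives. Unnamed cells closest to mesangial cells made up 0.874%, 16.4%, 0.207% and 1.34% of kept cells. Cells set aside from the mesangial clusters because they held endothelial markers numbered 117, 75, 16 and 10. With such mixed cells kept, the mesangial log2 fold changes of Ccl2, Cxcl2 and Cxcl13 were 4.10, 1.79 and 3.01. Over the 12 alternatives they ranged from 3.29 to 4.21, from 1.44 to 1.81 and from 2.45 to 3.01. These ranges describe the processing, since the genes were selected on this contrast.

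Cdkn2a, the gene of the cell cycle inhibitor p16 used as a marker of senescent cells, was found in 1, 1, 85 and 96 mesangial cells. In the first aged library Cxcl13 was 1665 CPM in cells with a Cdkn2a UMI and 1083 CPM in those without, and in the second 939 and 927 CPM. Ccl2 was 122 against 208 CPM in the first and 436 against 357 CPM in the second. The order of the 2 Ccl2 values differed between the libraries. Cells with the gene were deeper, with median depths of 8640 and 15414 UMIs against 4052.5 and 6145.

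Genes most like each chemokine were found by Pearson correlation of log2(CPM + 1) over 32 sums, 8 cell classes in 4 libraries. These points share libraries, depth and cell type differences, and the r values are descriptions. Macrophages and neutrophils, with under 20 cells in a library, were not among the 8 classes. Ccl2 was most like Cxcl2 (r = 0.83), and Ccl7 most like Ccl2 (r = 0.62). The Ccl7 value rests on few UMIs, since macrophages held 94 aged UMIs of it against 17 in aged mesangial cells. Cxcl12 was most like its receptor Ackr3 (r = 0.93), although the 2 moved in opposite directions with age in podocytes.

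The other nearest genes were no chemokines. Cxcl2 was most like the transcription factor gene Cebpa (r = 0.94) and the endotoxin receptor Tlr4 (r = 0.89), and Cxcl1 most like Myh10 (r = 0.93). Cxcl10 was most like Bmp4 (r = 0.89), Cxcl16 like Dapk1 (r = 0.92), Cx3cl1 like Bcar1 (r = 0.89) and Csf1 like Nrp2 (r = 0.93). Cxcl13 was most like AC162467.3 (r = 0.89) and Kcnd3 (r = 0.88).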

How the data were processed

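Per the labels' protocols, glomerular cells were run on a 10x Chromium 3' kit and aligned to GRCm38. The extract protocol names Cell Ranger 3.1.0, and the file headers and the submitters' processing notes name 6.0.1. The deposited matrices hold raw UMI counts per gene and barcode, and the authors had kept barcodes of at least 500 UMIs, per the values. Gene identifiers and symbols are as deposited; 52403 of 52636 matched GENCODE vM21. No column of another sample was used.

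Barcodes with at least 500 genes and at most 20% mitochondrial UMIs were kept (scanpy 1.11.5, Python 3.11.15). The doublet caller's own threshold called 133, 0, 1 and 0 barcodes, so the highest-scoring 0.8% per 1000 barcodes were removed instead, 221 to 798 per library. Cells were clustered on 2000 variable genes, 30 components and resolution 1.0 (leidenalg 0.10.2), with 38 variable genes of the lists left out. Clusters were named from marker lists, with cut-offs chosen once values were known.

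UMI counts were summed per library and class with at least 20 cells in each library. They were tested with edgeR 4.0.16 (R 4.3.3; TMM scaling, filterByExpr, quasi-likelihood test, Benjamini-Hochberg adjustment over all genes tested). An exact permutation test of 2 against 2 libraries cannot go below p = 0.333. The procedure was checked on simulated counts with a fixed spread between libraries, which cannot show how it performs at the spread of these libraries. Intervals and floors (3 UMIs or cells) cover counting error only. The labels do not say that same-numbered libraries pair, and the main test used no pairing. Alternatives were DESeq2 1.42.0, RLE scaling, no filter on low counts, each replicate left out, a replicate block, doublets kept, cells named one by one, mixed cells kept, and chemokine genes kept in the clustering. The 10 genes and all lists were chosen with earlier results of these data known. In each list, class and direction, up to 3 called genes with the smallest p were named. A gene that this rule names is not reported here.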

Additional observations from a re-analysis of the deposited data

Results flagged for a closer look

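Cxcl2 was measured in the barcodes left out for having under 500 genes. Its level there was 5.51 CPM and 28.4 CPM in the young libraries and 874 CPM and 286 CPM in the aged ones, a signal outside the cells compared in the report and above the level in the young libraries.

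Cxcl10 lay on opposite sides in different cell classes. In endothelial cells it was 302, 525, 640 and 553 CPM and in parietal epithelial cells 293, 370, 384 and 715 CPM, with both aged libraries above both young ones. In smooth muscle and renin cells it was 106, 102, 72.3 and 7.86 CPM, with both aged libraries below. The difference between the classes was not tested.

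Cxcl12 was 80.0, 83.1, 109.9 and 125 CPM in podocytes, with both aged libraries above, and 222, 115, 104 and 113 CPM in parietal epithelial cells, with both below. The parietal values rest on 22, 9, 16 and 25 UMIs, and the second young library lies within their counting error. This difference was not tested either.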

How the results depend on the processing

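The number of genes called depended on the processing. In podocytes 728 genes were called, against 264 with DESeq2, 148 with cells named one by one, 468 with mixed cells kept and 290 to 949 with a replicate left out. In endothelial cells 753 were called, against 499 with DESeq2 and 0 without the filter on low counts; with a replicate left out the count was 0 to 762, and it was 0 without young replicate 1 and without young replicate 2. In mesangial cells 760 were called, against 421 with DESeq2, 1309 without the filter, 412 with cells named one by one, 1586 with mixed cells kept and 59 to 1737 with a replicate left out. In parietal epithelial cells 48 were called, against 25 with DESeq2, 124 without the filter, 94 with doublets kept, 187 with cells named one by one, 20 with mixed cells kept and 46 to 119 with a replicate left out. In smooth muscle and renin cells 55 were called, against 15 with DESeq2, 102 without the filter, 5 with mixed cells kept and 59 to 92 with a replicate left out. A fit with 1 library left in a group assumes that it varies like the others. The causes were not tested.

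With the replicate block the counts were 1223 in endothelial, 1402 in mesangial, 117 in parietal epithelial and 15 in smooth muscle and renin cells. The labels do not say that a number pairs libraries, and the deviations of same-numbered libraries correlated at -0.035 to 0.069 with only 2 pairs.

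Of 355 alternative log2 fold changes of the 10 genes, 298 kept the call or its absence, 32 lost the call, 24 gained one and 1 reversed. The reversed one was podocyte Cxcl1, whose log2 fold change was -0.081 with cells named one by one. A change of sign was counted as reversed only where either fit called the gene, so the 298 can hold changes of sign without a call. Of 586 for called list genes, 452 kept direction and call, 133 lost the call and 1 reversed: podocyte Bst2, at -0.11 with cells named one by one. Of 28 alternative shares of cells with a UMI, unthinned or thinned to 500 UMIs, 10 stayed within the spread between replicates, 17 moved by more and 1 reversed: the endothelial share of cells with Csf1 was 1.19 percentage points higher in aged libraries without thinning and lower with it.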
